A study of Mus musculus with 9 samples.

Results

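The 43 genes described here are type I interferon antiviral genes: the 2 subunits of the interferon receptor, transcription factors that act below it, and genes that interferon switches on in a responding cell. They were taken by symbol from a table of 25124 mouse genes, and all 43 were found. The table covers ear skin of C57BL/6 mice in 9 RNA sequencing libraries. In 4 libraries the mice carried Staphylococcus epidermidis strain LM087, swabbed on the ears on alternate days up to day 8, and were also given anti-CTLA-4, an antibody that blocks a brake on T cell activation. In the other 5 libraries the mice carried the same bacterium and no antibody. The comparison asks what checkpoint blockade changes in skin that holds this skin bacterium. Skin with no bacterium and skin with the antibody alone were not analysed here, so what the bacterium itself does to these genes cannot be read from these groups. The labels state neither antibody dose and schedule nor age and sex. Nor do they say that each library is a separate animal, so p-values measure the spread between these libraries, which may be partly technical.

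Type I interferons are secreted proteins that most nucleated cells can make when sensors detect foreign or misplaced nucleic acid. They bind a receptor built from IFNAR1 and IFNAR2, whose kinases activate transcription factors that include STAT2. Together with IRF9, STAT2 acts in a complex that binds the interferon-stimulated response element in the promoters of antiviral genes. Their products degrade viral RNA, block translation, alter membranes and sense further nucleic acid. Many of them can also be raised by interferon-gamma or interferon-lambda, so the list names a set of genes and not one ligand.

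The deposited values are TPM, scaled for each gene by its span on the genome, introns included. TPM is therefore compared between libraries and never between genes. Where TPM is summed over a list of markers, genes with a short span weigh more. The same values give back whole reads, and the libraries held from 10213773 to 13868671 reads in genes. The 43 genes had 198 to 10818 reads each over the 9 libraries, with a median of 1582. There were 8 genes with under 20 reads in at least 1 library, and counting error is large there. All 43 passed the expression filter of 1 TPM in at least 4 libraries, which kept 15704 genes.

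The genes were higher as a group in skin given anti-CTLA-4. Of the 43, 33 (76.7%) rose by limma at an adjusted p under 0.05, where 7.16% of all tested genes rose. None fell, where 4.48% of all genes fell. Over all tested genes 1124 rose and 704 fell, and after quantile normalization 1314 rose and 1429 fell, while 33 of the 43 were called higher under each. All 43 fold changes were above 0, and 42 had an unadjusted p under 0.05. The median log2 fold change was 0.80 for the 43 genes and -0.01 for all tested genes. In mean TPM the anti-CTLA-4 libraries lay 1.21 to 4.18 times above those of the bacterium alone, with a median of 1.95, and 17 genes reached 2-fold. Every anti-CTLA-4 library lay above every library of the bacterium alone for 28 of the 43 genes (65.1%), which held for 8.02% of all tested genes. The list was drawn up with earlier results of these data known, so these shares describe it and do not test it. The genes not called were Stat2, Ifi205, Oas1g, Ifit1, Ifit2, Usp18, Herc6, Ifi44, Ifi35 and Xaf1. In bulk tissue, more cells that hold these RNAs and more of each RNA per cell cannot be told apart.

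**Figure D1:**
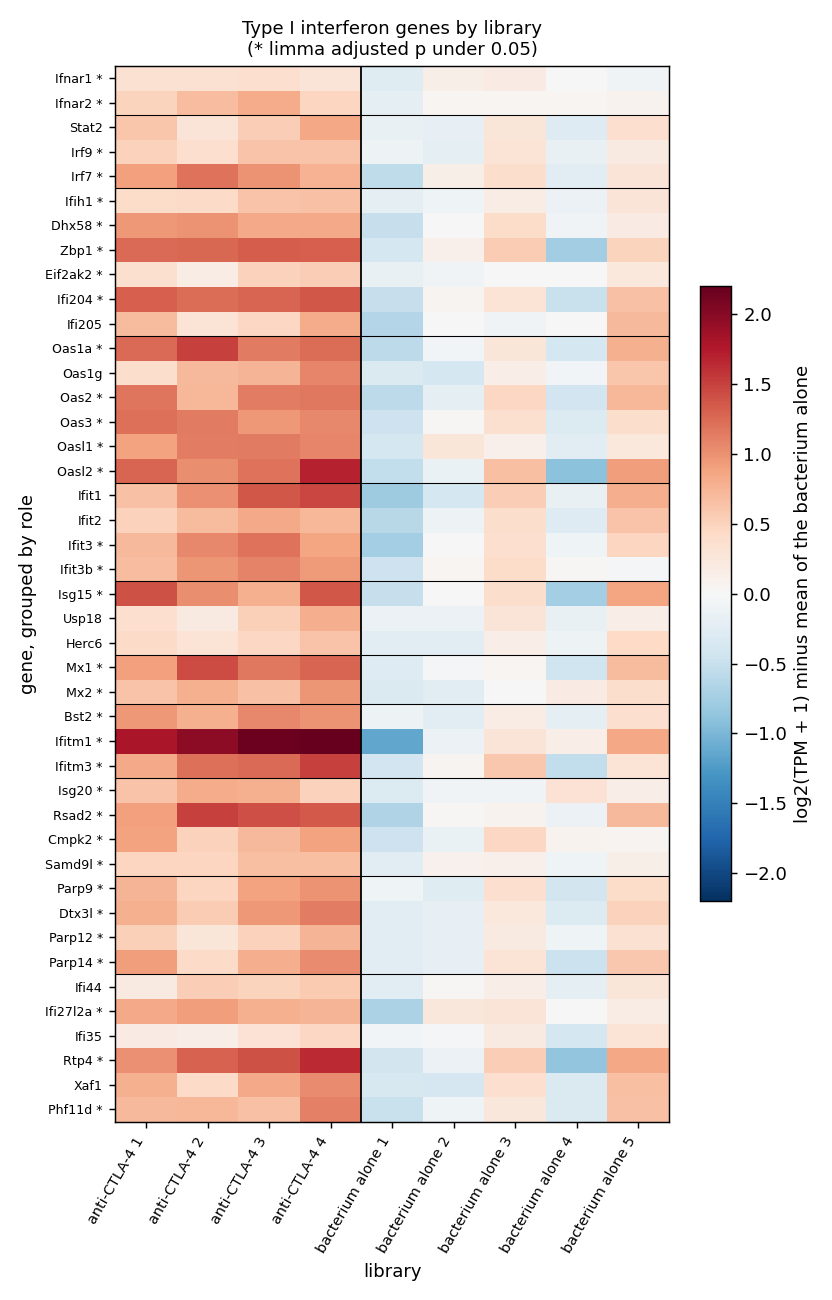
Level of the 43 genes in each library. Rows are genes grouped by role, columns are the 4 anti-CTLA-4 libraries and then the 5 of the bacterium alone, and colour is log2(TPM + 1) minus the mean of the bacterium alone. The anti-CTLA-4 columns are red in nearly every row, and replicates 3 and 5 of the bacterium alone are redder than replicates 1 and 4.

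On the recovered reads, limma's voom method called 41 of the 43 genes higher, against 11.7% of all genes, and left out Ifi205 and Ifi35. All 33 genes called on TPM were among the 41. The median log2 change was 1.04 on reads, where 24 genes reached 1, against 14 on TPM. Adding 1 to each TPM shrinks the change of genes whose span is long or whose level is low, and Oasl1, Oas3, Oas1g, Mx2 and Ifi44 moved most between the scales. Fold changes below are on the log2(TPM + 1) scale with their SE unless reads are named, and means carry their SD over 4 anti-CTLA-4 libraries and 5 of the bacterium alone. The number of calls depended on single libraries. It fell to 19 genes without anti-CTLA-4 replicate 4, and to 21 without anti-CTLA-4 replicate 3 or without replicate 2 of the bacterium alone. It rose to 35 without replicate 3 of the bacterium alone, and to 39 of 42 tested without its replicate 5. There were 18 of the 43 called in all 9 fits that left out 1 library. Over all genes, those fits called 706 to 1094 higher, against 1124 with every library. With the mean log2(TPM + 1) of the tested muscle markers as a covariate, 0 of the 43 were called (27 at an unadjusted p under 0.05). With the tested hair follicle markers in their place, 2 were. Of all 15704 tested genes, 155 and 252 were called higher in those fits, against 1124 without a covariate. The median log2 change of the 43 was 0.76 and 0.72 in those fits.

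**Figure D2:**
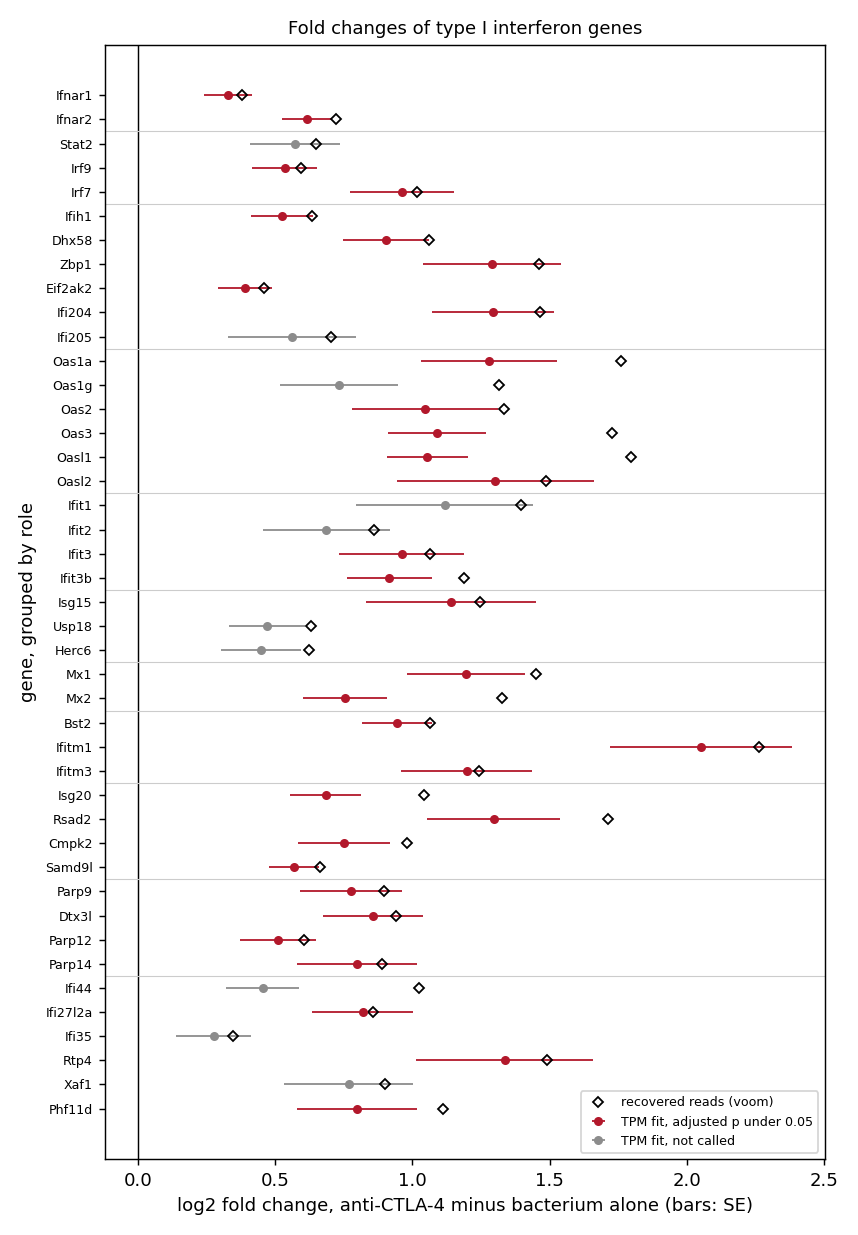
Log2 fold change of each gene, anti-CTLA-4 minus the bacterium alone. Filled points with SE bars are from log2(TPM + 1), red where the limma adjusted p is under 0.05, and open diamonds are from recovered reads. All 43 points lie right of 0, from 0.28 for Ifi35 to 2.05 for Ifitm1.

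Promoter windows of RefSeq (GRCm38.p6, 250 bases before to 50 after the start) were at hand for 32 of the 43 genes. The core of the interferon-stimulated response element, GAAANNGAAA on either strand, stood in the windows of 14 of the 32 genes (43.8%), against 3.99% of the 27025 genes for which RefSeq windows were given. The gamma-activated site, TTCNNNGAA, stood in 9 (28.1%), against 9.55% of those genes. In Bst2 and Ifitm3 the 2 motifs share bases. A match says that the letters are present, not that a factor binds there. The stretches below are shown because they hold the response element in genes whose levels are given further on, both called (Isg15, Ifit3, Bst2, Rsad2, Oas1a, Oas3) and not called (Ifit1, Stat2). Each is 60 bases upstream of a start site, read 5′ to 3′ along the gene, with matches to the element in capitals.
Isg15: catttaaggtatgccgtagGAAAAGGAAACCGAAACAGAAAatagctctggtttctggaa
Ifit1: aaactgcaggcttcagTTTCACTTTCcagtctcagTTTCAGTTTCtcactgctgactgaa
Ifit3: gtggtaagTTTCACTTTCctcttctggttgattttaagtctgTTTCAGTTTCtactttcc
Bst2: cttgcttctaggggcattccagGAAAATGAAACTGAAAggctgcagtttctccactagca
Rsad2: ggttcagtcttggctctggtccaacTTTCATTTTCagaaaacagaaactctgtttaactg
Oas1a: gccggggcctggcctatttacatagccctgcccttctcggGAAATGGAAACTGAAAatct
Oas3: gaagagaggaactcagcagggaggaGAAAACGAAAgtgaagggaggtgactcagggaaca
Stat2: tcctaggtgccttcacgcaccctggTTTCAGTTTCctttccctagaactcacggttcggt
They lie at chr4:156200856-156200915 on the minus strand for Isg15, chr19:34640769-34640828 on the plus strand for Ifit1, chr19:34583365-34583424 on the plus strand for Ifit3 and chr8:71537565-71537624 on the minus strand for Bst2. Those of Rsad2, Oas1a, Oas3 and Stat2 lie at chr12:26456538-26456597 on the minus strand, chr5:120907526-120907585 on the minus strand, chr5:120777700-120777759 on the minus strand and chr10:128270251-128270310 on the plus strand. Ifit1, Ifit3, Rsad2 and Stat2 carry the element on the strand opposite to the one printed. Isg15 holds 3 overlapping matches, the first starting 78 bases before its start site. Ifit3b, the neighbouring copy of Ifit3, has the same 60 bases at chr19:34607761-34607820 on the plus strand. The stretch of Oas1g differs from that of its neighbour Oas1a at 1 of 58 aligned bases.

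Both receptor subunits were higher. Ifnar1 (mm10 chr16:91485215-91510522, plus strand), the subunit that binds interferon with low affinity and carries the kinase TYK2, had 19.6, 19.5, 20.1 and 19.0 TPM in the anti-CTLA-4 libraries, against 12.7, 16.8, 17.6, 15.5 and 14.6 TPM with the bacterium alone. The groups did not overlap, but the change was small, at 0.33 ± 0.09 (limma adjusted p = 0.0411). Ifnar1 stayed called without replicate 3 of the bacterium alone and lost its call without any other single library, with limma adjusted p up to 0.0872. Ifnar2 (mm10 chr16:91372783-91394043, plus strand), the high-affinity subunit, had 10.7, 12.3, 13.7 and 10.5 TPM with anti-CTLA-4, against 6.22, 7.54, 7.60, 7.54 and 7.83 TPM with the bacterium alone. It lay higher in every anti-CTLA-4 library, with a change of 0.62 ± 0.09 (limma adjusted p = 0.00450) that passed in all 9 fits without 1 library.

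Of the 3 transcription factors, Irf9 and Irf7 rose. Irf9, the DNA-binding partner of STAT2, had 45.6, 41.6, 49.8 and 50.0 TPM with anti-CTLA-4, against 29.4, 27.3, 39.4, 28.3 and 36.8 TPM with the bacterium alone. These groups did not overlap, although replicate 3 of the bacterium alone came close to the lowest anti-CTLA-4 library, and the change was 0.53 ± 0.12 (limma adjusted p = 0.0206). Irf9 was not called without anti-CTLA-4 replicate 3 or 4, with limma adjusted p up to 0.0559. Irf7 (mm10 chr7:141263183-141266424, minus strand), which drives most interferon alpha genes and is itself interferon-induced, averaged 59.3 ± 7.52 TPM with anti-CTLA-4 and 30.6 ± 8.16 TPM with the bacterium alone. Single libraries held 56.7, 69.3, 59.7 and 51.3 TPM with anti-CTLA-4, against 19.9, 32.6, 39.4, 24.7 and 36.6 TPM with the bacterium alone. All 4 were above all 5, with a change of 0.96 ± 0.19 (limma adjusted p = 0.0130). Stat2, a transcription factor activated at the receptor, had 25.8, 20.4, 24.6 and 30.9 TPM with anti-CTLA-4, against 14.6, 14.5, 20.2, 13.4 and 21.7 TPM with the bacterium alone. Here replicate 5 of the bacterium alone exceeded anti-CTLA-4 replicate 2, and the change of 0.57 ± 0.16 did not pass (limma adjusted p = 0.0513; 0.0141 on reads). Stat2 shares 753 bases with Apof on the same strand, and the labels do not say how reads there were assigned.

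Among the nucleic acid sensors, 5 of 6 rose. Ifi204 (mm10 chr1:173747294-173766919, minus strand), a mouse sensor of DNA of the PYHIN family, had 18.9, 17.8, 18.4 and 19.7 TPM with anti-CTLA-4, against 4.65, 7.40, 8.85, 4.71 and 11.5 TPM with the bacterium alone. The anti-CTLA-4 libraries stood close together and far above the rest, with a change of 1.29 ± 0.22 (limma adjusted p = 0.00758). Zbp1 (mm10 chr2:173213736-173218922, minus strand), a sensor of Z-form nucleic acid that can trigger necroptosis, averaged 18.3 ± 0.562 TPM with anti-CTLA-4 and 7.39 ± 3.06 TPM with the bacterium alone. The single values were 17.7, 18.1, 19.0 and 18.6 TPM with anti-CTLA-4, against 5.03, 7.50, 10.7, 3.67 and 10.1 TPM with the bacterium alone. The groups were apart, and the libraries of the bacterium alone differed widely among themselves, with a change of 1.29 ± 0.25 (limma adjusted p = 0.0127). Dhx58, which encodes the RNA sensor LGP2, had 11.0, 11.2, 9.93 and 9.98 TPM with anti-CTLA-4, against 3.33, 5.13, 7.17, 4.85 and 5.94 TPM with the bacterium alone. It rose by 0.90 ± 0.16 (limma adjusted p = 0.00801), with no overlap. Ifih1, the RNA sensor MDA5, and Eif2ak2, the RNA-activated kinase PKR, rose less, by 0.53 and 0.39. Ifih1 was not called without anti-CTLA-4 replicate 4, with limma adjusted p up to 0.0507. Eif2ak2 stayed called without anti-CTLA-4 replicate 2 or replicate 5 of the bacterium alone and lost its call without any other single library, with limma adjusted p up to 0.0948. Ifi205, a relative of Ifi204, had a change of 0.56 ± 0.23 and was not called (limma adjusted p = 0.159).

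The oligoadenylate synthetases make a second messenger that leads to RNA decay, and 5 of the 6 genes rose. Oasl1, a member without synthetase activity that in mice limits translation of Irf7 mRNA, had 2.46, 3.08, 3.15 and 2.97 TPM with anti-CTLA-4, against 0.444, 1.27, 1.03, 0.602 and 1.20 TPM with the bacterium alone. The lowest anti-CTLA-4 value was well above the highest of the other group, with a change of 1.05 ± 0.15 (limma adjusted p = 0.00372) and 1.80 on reads. Oas3 had 3.98, 3.71, 3.14 and 3.43 TPM with anti-CTLA-4, against 0.557, 1.18, 1.72, 0.746 and 1.78 TPM with the bacterium alone. The groups were separate, with a change of 1.09 ± 0.18 (limma adjusted p = 0.00611) and 1.73 on reads. Oas1a had 5.87, 7.17, 5.37 and 5.72 TPM with anti-CTLA-4, against 0.925, 1.75, 2.46, 1.21 and 3.95 TPM with the bacterium alone. The nearest library of the bacterium alone, replicate 5, did not reach them, with a change of 1.28 ± 0.25 (limma adjusted p = 0.0124) and 1.76 on reads. Oas2 and Oasl2 rose by 1.05 and 1.30. The call of Oas2 ended when anti-CTLA-4 replicate 1, 3 or 4 or replicate 1, 2 or 4 of the bacterium alone was left out, with limma adjusted p up to 0.0820. Oasl2 stayed called without replicate 3 or 5 of the bacterium alone and lost its call without any other single library, with limma adjusted p up to 0.116. Oas1g had a change of 0.73 ± 0.22 and was not called (limma adjusted p = 0.0573). Oas1a and Oas1g are close copies whose promoter stretches nearly match, and the labels do not say how shared reads were split between them.

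Of the IFIT genes, whose products bind viral RNA and slow its translation, 2 of 4 passed. Ifit3b had 4.86, 6.16, 6.76 and 5.97 TPM with anti-CTLA-4, against 1.68, 2.77, 3.81, 2.74 and 2.59 TPM with the bacterium alone. No library of the bacterium alone reached the anti-CTLA-4 range, and the change was 0.92 ± 0.16 (limma adjusted p = 0.00697). Ifit3 had 22.1, 28.2, 31.2 and 24.7 TPM with anti-CTLA-4, against 7.41, 13.1, 17.2, 12.1 and 18.4 TPM with the bacterium alone. The groups did not overlap, with a change of 0.96 ± 0.23 (limma adjusted p = 0.0259). The call of Ifit3 ended when anti-CTLA-4 replicate 2, 3 or 4 or replicate 2 or 4 of the bacterium alone was left out, with limma adjusted p up to 0.0662. Ifit3 and Ifit3b are neighbouring copies, and how the counting split reads they may share is not stated, so their separate values are uncertain. Ifit1, which holds 2 response elements in the stretch shown, had 7.42, 9.83, 12.9 and 13.9 TPM with anti-CTLA-4, against 2.14, 3.12, 6.90, 3.80 and 8.36 TPM with the bacterium alone. Only replicate 5 of the bacterium alone lay inside the anti-CTLA-4 range. The change of 1.12 ± 0.32 was among the wider ones in its SE and did not pass (limma adjusted p = 0.0537; 0.00770 on reads). Ifit2 had a change of 0.69 ± 0.23 and was not called (limma adjusted p = 0.0875).

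ISG15 is a ubiquitin-like protein that HERC6 attaches to other proteins in mice and USP18 removes. Isg15 (mm10 chr4:156199424-156200818, minus strand) had 29.0, 22.1, 18.7 and 28.5 TPM with anti-CTLA-4, against 7.01, 10.4, 14.0, 5.84 and 19.7 TPM with the bacterium alone. Replicate 5 of the bacterium alone lay above anti-CTLA-4 replicate 3, so the groups overlapped. The change was 1.14 ± 0.31 (limma adjusted p = 0.0434). Isg15 stayed called without replicate 3 or 5 of the bacterium alone and lost its call without any other single library, with limma adjusted p up to 0.105. The gene rests on 44 to 72 reads per library with anti-CTLA-4 and 12 to 39 with the bacterium alone. Usp18, which also damps signalling at IFNAR2, had 5.08, 4.43, 5.79 and 7.18 TPM with anti-CTLA-4, against 3.31, 3.32, 4.75, 3.23 and 4.20 TPM with the bacterium alone. Herc6 had 4.52, 4.08, 4.68 and 5.41 TPM with anti-CTLA-4, against 2.49, 2.53, 3.60, 2.84 and 4.59 TPM with the bacterium alone. In both genes 1 or more libraries of the bacterium alone reached into the anti-CTLA-4 range, and neither passed, with changes of 0.47 ± 0.14 and 0.45 ± 0.15 (limma adjusted p = 0.0573 and 0.0811).

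**Figure D3:**
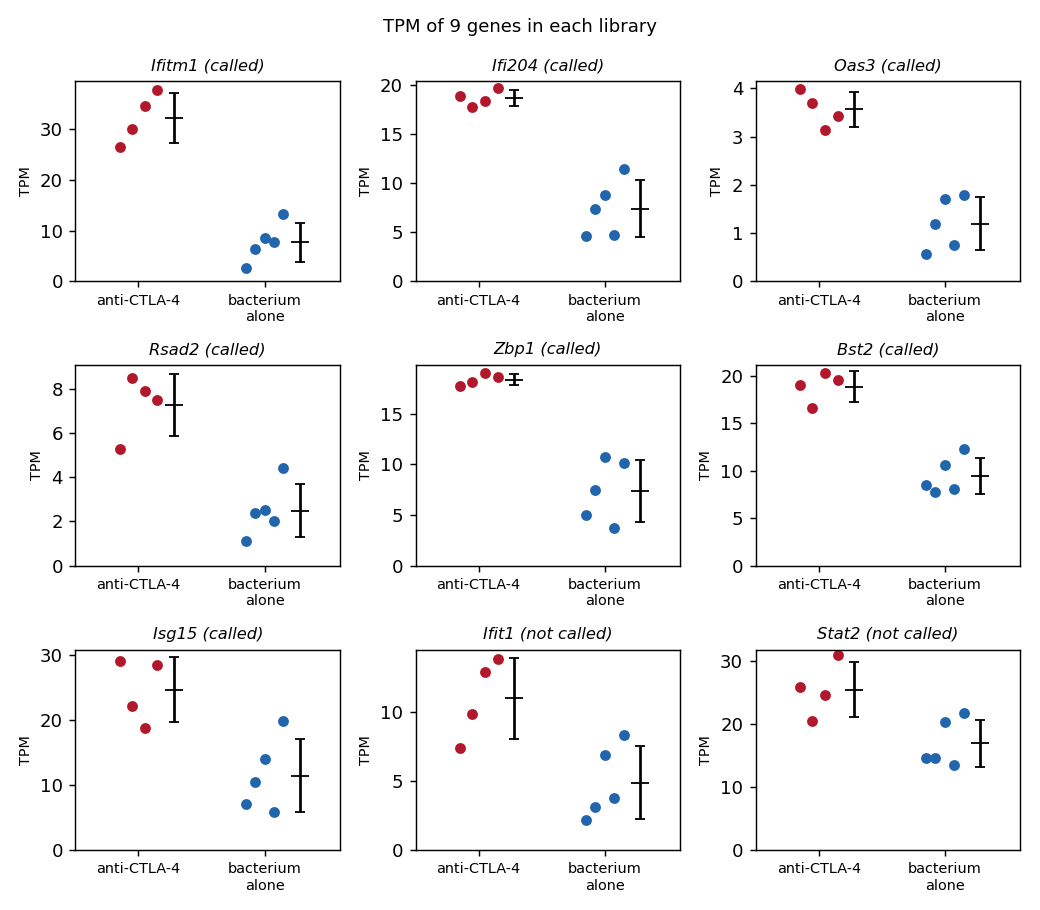
TPM of 9 genes in single libraries. Each point is a library, with anti-CTLA-4 on the left and the bacterium alone on the right, and bars give the mean and SD (n = 4 and n = 5). Ifitm1, Ifi204, Oas3, Rsad2, Zbp1 and Bst2 show separate groups, while replicate 5 of the bacterium alone reaches the lowest anti-CTLA-4 libraries for Isg15, Ifit1 and Stat2.

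Both Mx genes, which encode dynamin-like GTPases that trap viral components, rose. Mx1 (mm10 chr16:97447037-97462905, minus strand) had 8.38, 12.6, 10.2 and 11.1 TPM with anti-CTLA-4, against 3.12, 3.95, 4.16, 2.70 and 7.16 TPM with the bacterium alone. All 4 anti-CTLA-4 libraries lay above replicate 5 of the bacterium alone, the highest of its group, with a change of 1.20 ± 0.21 (limma adjusted p = 0.00903). C57BL/6 mice carry a defective Mx1 allele, so its RNA does not stand for a working protein. For Mx2 too, RNA does not show that a working protein was made. Mx2 had 2.13, 2.48, 2.15 and 2.98 TPM with anti-CTLA-4, against 0.630, 0.725, 1.01, 1.29 and 1.65 TPM with the bacterium alone. It rose by 0.75 ± 0.15 (limma adjusted p = 0.0145), with no overlap, and by 1.33 on reads. All 3 genes for membrane proteins that restrict viruses rose as well. Ifitm1 (mm10 chr7:140968076-140969827, plus strand), which hinders virus fusion, had 26.4, 30.1, 34.6 and 37.8 TPM with anti-CTLA-4, against 2.61, 6.30, 8.62, 7.76 and 13.3 TPM with the bacterium alone. The lowest anti-CTLA-4 library was well above the highest of the other group, and the change of 2.05 ± 0.33 was the largest of the 43 (limma adjusted p = 0.00597). It rests on 63 to 120 reads per library with anti-CTLA-4 and 7 to 33 with the bacterium alone. Ifitm3, which acts on viruses entering through endosomes, had 729, 944, 959.7 and 1151 TPM with anti-CTLA-4, against 305, 426, 617, 278 and 498 TPM with the bacterium alone. The groups were separate, with a change of 1.20 ± 0.24 (limma adjusted p = 0.0134). Bst2 (mm10 chr8:71534256-71537472, minus strand), or tetherin, which holds budding virions at the cell surface, had 19.0, 16.6, 20.3 and 19.5 TPM with anti-CTLA-4, against 8.51, 7.76, 10.6, 8.02 and 12.3 TPM with the bacterium alone. It lay higher in every anti-CTLA-4 library, with a change of 0.94 ± 0.13 (limma adjusted p = 0.00346), the smallest adjusted p among the 43.

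All 4 genes acting on nucleotides or RNA rose. Rsad2 (mm10 chr12:26442743-26456452, minus strand), or viperin, which makes a chain-terminating nucleotide, had 5.25, 8.49, 7.88 and 7.47 TPM with anti-CTLA-4, against 1.09, 2.37, 2.52, 2.03 and 4.43 TPM with the bacterium alone. The groups did not overlap, although replicate 5 of the bacterium alone came near anti-CTLA-4 replicate 1, and the change was 1.30 ± 0.24 (limma adjusted p = 0.0108). Samd9l, which restrains translation, had 12.4, 12.3, 14.2 and 14.2 TPM with anti-CTLA-4, against 7.18, 9.25, 9.44, 7.98 and 9.46 TPM with the bacterium alone. It changed by 0.57 ± 0.09 (limma adjusted p = 0.00585), with narrow and separate groups. Isg20, an RNA exonuclease, had 2.77, 3.30, 3.22 and 2.49 TPM with anti-CTLA-4, against 0.983, 1.31, 1.33, 2.05 and 1.70 TPM with the bacterium alone. Its groups were separate at 25 to 36 reads per library with anti-CTLA-4 and 10 to 20 with the bacterium alone, with a change of 0.68 ± 0.13 (limma adjusted p = 0.0116). Cmpk2, a nucleotide kinase next to Rsad2, rose by 0.75. Cmpk2 was not called without anti-CTLA-4 replicate 1 or 4 or replicate 2 of the bacterium alone, with limma adjusted p up to 0.0596.

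The 3 PARP genes and Dtx3l also rose. Dtx3l, a ubiquitin ligase that works as a pair with PARP9, had 37.9, 32.3, 43.0 and 48.0 TPM with anti-CTLA-4, against 18.1, 18.8, 25.4, 17.3 and 31.0 TPM with the bacterium alone. Replicate 5 of the bacterium alone came close to anti-CTLA-4 replicate 2 without passing it, and the change was 0.86 ± 0.18 (limma adjusted p = 0.0173). Parp9 had 15.8, 12.8, 17.4 and 18.8 TPM with anti-CTLA-4, against 8.38, 7.24, 11.8, 6.54 and 12.2 TPM with the bacterium alone. It changed by 0.78 ± 0.19 (limma adjusted p = 0.0279), again with separate groups. The call of Parp9 ended when anti-CTLA-4 replicate 1, 3 or 4 or replicate 1, 2 or 4 of the bacterium alone was left out, with limma adjusted p up to 0.0757. The genes are neighbours that share 558 bases on opposite strands, and the labels do not say whether counting used strand, so reads of the shared bases may belong to either. Parp12, which modifies proteins with ADP-ribose, had 13.3, 11.1, 13.2 and 15.7 TPM with anti-CTLA-4, against 7.35, 7.82, 10.4, 8.31 and 11.6 TPM with the bacterium alone. Here anti-CTLA-4 replicate 2 lay below replicate 5 of the bacterium alone, and the change was 0.51 ± 0.14 (limma adjusted p = 0.0451). The call of Parp12 ended when anti-CTLA-4 replicate 1, 3 or 4 or replicate 1, 2 or 4 of the bacterium alone was left out, with limma adjusted p up to 0.116. Parp14 rose by 0.80 with overlapping groups. The call of Parp14 ended when anti-CTLA-4 replicate 1, 3 or 4 or replicate 1, 2 or 4 of the bacterium alone was left out, with limma adjusted p up to 0.115.

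Of the remaining 6 interferon-induced genes 3 rose. Ifi27l2a, a small membrane protein gene, had 80.1, 85.0, 76.8 and 75.7 TPM with anti-CTLA-4, against 27.1, 53.3, 54.4, 44.4 and 49.9 TPM with the bacterium alone. Replicate 1 of the bacterium alone was lowest, the groups were separate, and the change was 0.82 ± 0.18 (limma adjusted p = 0.0211). Ifi27l2a was not called without anti-CTLA-4 replicate 1 or 2, with limma adjusted p up to 0.0547. Rtp4, a chaperone of membrane receptors, had 22.9, 28.3, 30.2 and 36.1 TPM with anti-CTLA-4, against 8.03, 9.85, 16.4, 5.52 and 20.3 TPM with the bacterium alone. Its groups were separate but each was wide, with a change of 1.34 ± 0.32 (limma adjusted p = 0.0283). The call of Rtp4 ended when anti-CTLA-4 replicate 2, 3 or 4 or replicate 1 or 2 of the bacterium alone was left out, with limma adjusted p up to 0.0754. Phf11d had 4.63, 4.69, 4.33 and 6.37 TPM with anti-CTLA-4, against 1.44, 2.22, 3.10, 1.76 and 4.33 TPM with the bacterium alone. Replicate 5 of the bacterium alone reached the lowest anti-CTLA-4 value, and the change was 0.80 ± 0.22 (limma adjusted p = 0.0453). Phf11d stayed called without replicate 3 or 5 of the bacterium alone and lost its call without any other single library, with limma adjusted p up to 0.116. Ifi44, Ifi35 and Xaf1 were not called, with changes of 0.45 ± 0.13, 0.28 ± 0.14 and 0.77 ± 0.24 and limma adjusted p-values of 0.0573, 0.235 and 0.0664.

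The libraries of the bacterium alone were not uniform, and they differed in the same order for most of the 43 genes. Replicates 3 and 5 were the upper 2 of the 5 for 34 genes (79.1%), which was so for 9.23% of all tested genes. Replicate 5 was highest for 31 genes and replicate 1 lowest for 27. Summed reads of the 43 genes, scaled to each library's total as RPM, came to 1326, 1234, 1322 and 1551 RPM in the anti-CTLA-4 libraries, against 598, 691, 931, 585 and 1035 RPM with the bacterium alone. The sums did not overlap, and replicates 3 and 5 of the bacterium alone lay nearest to the anti-CTLA-4 range. The ratio of the highest to the lowest library of a gene had a median of 1.40 with anti-CTLA-4 and 2.28 with the bacterium alone, and was wider with the bacterium alone for 41 genes. Replicate 5 of the bacterium alone was the only library that reached the anti-CTLA-4 range for 13 of the 15 genes whose groups overlapped, and without it 40 of 42 tested genes were separate. The neutrophil and keratinocyte gene S100a8 had 1032, 1463, 1759 and 3364 TPM with anti-CTLA-4, against 63.6, 313, 903, 69.1 and 1031 TPM with the bacterium alone. It thus ordered the libraries of the bacterium alone much as the 43 genes did. The general leukocyte gene Ptprc gave the same order as S100a8, less steeply, at 8.18, 10.3, 11.1, 8.25 and 11.9 TPM. The part of either gene in the spread of the 43 was not tested.

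**Figure D4:**
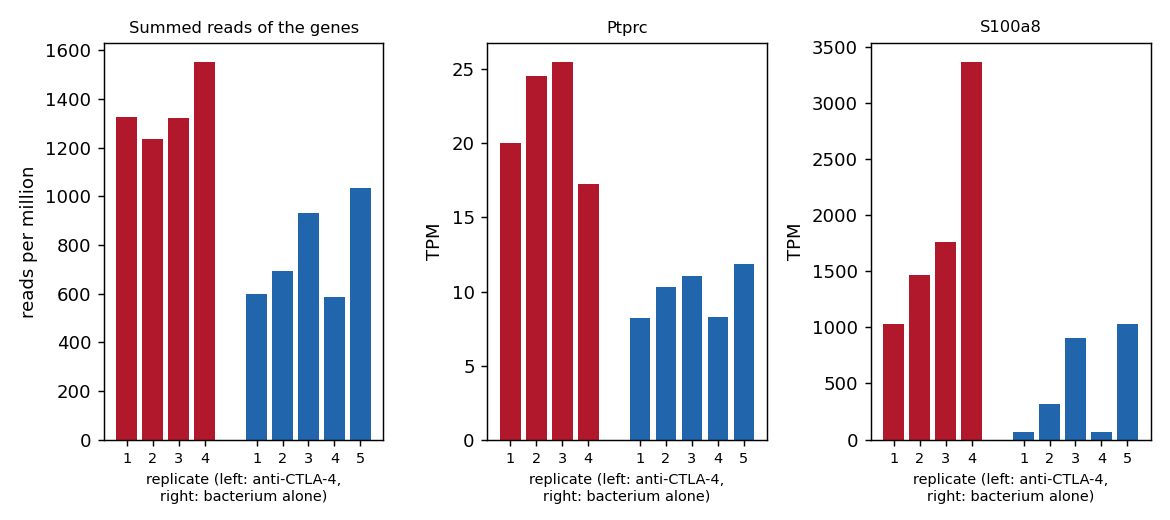
RPM summed over the 43 genes, and TPM of Ptprc and S100a8, in each library, with anti-CTLA-4 bars (red) left of the bacterium alone (blue). The summed reads of replicates 3 and 5 of the bacterium alone, 931 and 1035 RPM, stand above those of replicates 1, 2 and 4. Ptprc and S100a8 are also highest in replicates 3 and 5 of that group, S100a8 more steeply.

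After each group's mean was subtracted, the average standardised level of the 43 genes had Pearson correlations over the 9 libraries with its own genes of 0.22 (Isg20) to 0.98 (Ifit2), with a median of 0.84, and 28 genes reached 0.8. The receptor subunits stood low, at 0.45 for Ifnar1 and 0.46 for Ifnar2. Over all tested genes the median was -0.05, but each of the 43 is part of the average, which raises its own correlation. These 9 points share library depth and tissue content, so the correlations describe and are not tested. Outside the lists, the genes most like the average were Ctla4 (0.97), the T cell gene for the antibody's own target, Fpr2 (0.96), a receptor for formyl peptides on neutrophils and monocytes, Plac8 (0.96), the T cell receptor kinase gene Zap70 (0.95) and the DNA resolvase gene Gen1 (0.95). Of genes compared after their values were seen, S100a8 stood at 0.95, Ptprc at 0.58, the keratinocyte gene Krt5 at 0.46 and Csf1r at -0.16.

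RNA of the interferon genes themselves was scarce. Of 20 ligand genes, 11 were at 0 in all 9 libraries, among them Ifnb1. A count of 0 allows up to 3 reads, which for Ifnb1 is 2.15 to 2.87 TPM in a library, by counting error alone. The 20 genes together had 71 reads with anti-CTLA-4 and 91 with the bacterium alone, of which Ifnk, a keratinocyte interferon, held 61 with anti-CTLA-4 and 78 with the bacterium alone. Ifnk, the ligand gene that passed the filter, had 4.12, 5.23, 6.04 and 4.21 TPM with anti-CTLA-4, against 6.64, 5.91, 3.84, 4.15 and 5.03 TPM with the bacterium alone. The groups overlapped, with a change of -0.04 ± 0.15 (limma adjusted p = 0.891).

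Of 15 genes that detect nucleic acid or pass that signal on, 5 rose, where 7.16% of all tested genes rose. Tlr9, the endosomal sensor of unmethylated DNA, had 29.0, 29.3, 32.9 and 21.0 TPM with anti-CTLA-4, against 9.29, 14.4, 11.5, 11.7 and 13.5 TPM with the bacterium alone. The groups were far apart, with a change of 1.15 ± 0.15 (limma adjusted p = 0.00289). Tmem173, which encodes the adaptor STING, had 18.6, 14.7, 16.7 and 23.6 TPM with anti-CTLA-4, against 6.63, 7.60, 11.9, 7.60 and 12.3 TPM with the bacterium alone. It rose by 0.94 ± 0.20 (limma adjusted p = 0.0163), with no overlap. Trex1, a DNA exonuclease that limits STING activation, averaged 117 ± 13.8 TPM with anti-CTLA-4 and 66.1 ± 14.3 TPM with the bacterium alone, a change of 0.84 ± 0.16 (limma adjusted p = 0.0115). Ddx58, the RNA sensor RIG-I, rose by 0.46 and the RNA sensor gene Tlr3 by 0.28. The call of Ddx58 ended when anti-CTLA-4 replicate 1, 2, 3 or 4 or replicate 2 or 4 of the bacterium alone was left out, with limma adjusted p up to 0.0939. Tlr3 stayed called without anti-CTLA-4 replicate 2 or replicate 3 of the bacterium alone and lost its call without any other single library, with limma adjusted p up to 0.118. The adaptor gene Mavs and the factor gene Irf3 had changes of -0.17 ± 0.06 and -0.05 ± 0.06 and were not called.

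Of 7 further genes of receptor signalling, 1 rose. It was Irf2, a repressor of interferon-induced promoters, with 14.4, 14.0, 15.7 and 14.1 TPM under anti-CTLA-4, against 11.2, 11.5, 11.5, 11.3 and 12.4 TPM with the bacterium alone. The change was small, at 0.31 ± 0.06, but the groups were separate (limma adjusted p = 0.00977). The kinase genes Jak1 and Tyk2 had changes of 0.03 ± 0.06 and 0.04 ± 0.07. Ifnlr1, the specific subunit of the interferon-lambda receptor, averaged 8.57 ± 1.25 TPM with anti-CTLA-4 and 10.4 ± 0.367 TPM with the bacterium alone, a change of -0.26 ± 0.09 that did not pass (limma adjusted p = 0.0827), and Il10rb, its shared subunit, changed by 0.27 ± 0.09 without passing (limma adjusted p = 0.0995). Of 8 negative regulators 1 rose, Ptpn6, the phosphatase SHP-1 of blood cells, by 0.64 ± 0.09 (limma adjusted p = 0.00344). For lists of 7 and 8 genes, 1 call does not set a list apart from the 7.16% of all tested genes that rose. Socs3 averaged 80.7 ± 17.4 TPM with anti-CTLA-4 and 45.4 ± 18.3 TPM with the bacterium alone and did not pass (limma adjusted p = 0.0598), nor did Rnf125 and Nlrc3, with changes of 0.29 ± 0.10 and 0.32 ± 0.10.

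Of 25 interferon-stimulated genes outside the 43, 16 rose, where 7.16% of all tested genes rose. Sp100, a nuclear body protein gene, averaged 13.0 ± 1.43 TPM with anti-CTLA-4 and 6.01 ± 1.26 TPM with the bacterium alone, a change of 1.01 ± 0.14 (limma adjusted p = 0.00329). Apobec3, a cytidine deaminase that restricts retroviruses, Lgals9, which encodes galectin-9, and Nmi, an interferon-induced adaptor gene, rose by 0.73, 0.78 and 0.68, each with separate groups. The list also holds both other enzymes of the ISG15 pathway, the activating enzyme Uba7 and the conjugating enzyme Ube2l6, which rose by 0.79 and 0.83. These last 2 were picked after their values were seen.

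Of 26 close relatives of the 43, 19 passed the filter and, where 7.16% of all tested genes rose, 13 of them rose. Most were PYHIN genes of chromosome 1 next to Ifi204. Mndal had 15.3, 15.3, 15.8 and 14.8 TPM with anti-CTLA-4, against 5.99, 6.93, 7.75, 6.21 and 11.1 TPM with the bacterium alone. The anti-CTLA-4 libraries were nearly equal and all higher, with a change of 0.95 ± 0.15 (limma adjusted p = 0.00502). Ifi211 and Ifi208 rose by 0.93 and 1.05. Ifit1bl1, a copy in the Ifit cluster, averaged 4.14 ± 0.503 TPM with anti-CTLA-4 and 0.864 ± 0.595 TPM with the bacterium alone, a change of 1.52 ± 0.23 (limma adjusted p = 0.00442). Near-identical copies can share reads, so single values in this list are uncertain. Of the 43 genes themselves, 8 lie on chromosome 16, 6 in the Oas regions of chromosome 5 and 4 in the Ifit cluster of chromosome 19.

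Markers of several white blood cell types moved with the 43 genes, and those of dendritic, Langerhans and red cells were not called. All 6 general leukocyte markers rose, where 7.16% of all tested genes rose and 4.48% fell. Their median log2 change was 1.22, with summed levels of 308 to 404 TPM with anti-CTLA-4 and 118 to 163 TPM with the bacterium alone. Of 7 T cell markers 6 rose, with sums of 50.4 to 72.1 TPM with anti-CTLA-4 and 19.4 to 26.7 TPM with the bacterium alone. Of 8 monocyte and macrophage markers 7 rose, with sums of 366 to 510.1 TPM with anti-CTLA-4 and 179.8 to 267 TPM with the bacterium alone. Ly6c2, 1 of the 7, lost its call in 5 of the 9 fits without 1 library, with limma adjusted p up to 0.0871. It had 3 reads in replicate 1 of the bacterium alone. Of 6 neutrophil markers 5 were tested and 3 rose: Csf3r, Cxcr2 and Retnlg. Without single libraries Cxcr2 and Retnlg lost their calls, with limma adjusted p up to 0.0980 and 0.0879, and Retnlg had at most 13 reads per library. The list summed to 1508 to 4458 TPM with anti-CTLA-4 and 106 to 1478 TPM with the bacterium alone. Most of these sums was S100a8 and S100a9, which were not called on TPM (limma adjusted p = 0.0821 and 0.115). On reads their voom adjusted p was 0.0133 and 0.0249. Ly6g, the defining marker of neutrophils, was at 0 in all but 1 library. Plasmacytoid dendritic cell markers, of cells known for making much interferon alpha, changed by -0.15 to 0.07 over the 3 of 5 tested. Siglech lay at 0.753 to 1.49 TPM with anti-CTLA-4 and 0.591 to 1.08 TPM with the bacterium alone. Cox6a2 held 635 of the list's 1191 reads with anti-CTLA-4 and 844 of 1538 with the bacterium alone. Within the bacterium alone Cox6a2 was highest in replicate 4 and lowest in replicate 5, as were the muscle markers except Myh4, highest in replicate 3. With anti-CTLA-4 it was highest in replicate 4, where the muscle marker Acta1 was lowest. Which cells held Cox6a2 RNA was not tested. Pacsin1 and Klk1, not tested at 84 and 17 reads over the 9 libraries, averaged 0.328 and 0.438 TPM with anti-CTLA-4. With the bacterium alone they averaged 0.151 and 0.174 TPM. These values do not show whether the number of plasmacytoid dendritic cells changed. Changes ran from -0.37 to 0.26 over the 6 dendritic and Langerhans cell markers and from -0.07 to 0.71 over the 3 of 5 red cell markers tested. The keratinocyte markers that define skin summed to 18916 to 22202 TPM with anti-CTLA-4 and 20795 to 26475 TPM with the bacterium alone. Of these 6 markers 1, Krt1, rose, with a change of 0.96 ± 0.22 (limma adjusted p = 0.0245). Krt1 lost its call in 4 of the 9 fits without 1 library, with limma adjusted p up to 0.0621. Krt10, its partner keratin, lay lower in every anti-CTLA-4 library, with a change of -0.40 ± 0.13 that did not pass on TPM (limma adjusted p = 0.0809; 0.00863 on reads), and the other 4 changed by -0.23 to 0.15 without passing. For the 4 fibroblast markers the changes were 0.03 to 0.34, and for the 4 endothelial markers -0.05 to 0.24. The skeletal muscle markers summed to 796 to 1161 TPM with anti-CTLA-4 and 948 to 1472 TPM with the bacterium alone, and the hair follicle markers to 18.0 to 25.2 TPM with anti-CTLA-4 and 25.8 to 45.3 TPM with the bacterium alone. Of 7 hair follicle markers 5 were tested and 2 fell, with changes of -0.92 ± 0.18 for Krt73 and -0.30 ± 0.08 for Foxn1 (limma adjusted p = 0.0128 and 0.0442). Foxn1 stayed called without anti-CTLA-4 replicate 3 or replicate 5 of the bacterium alone and lost its call without any other single library, with limma adjusted p up to 0.110. The part of these cell types in the change of the 43 genes was not tested.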

How the data were processed

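RNA of whole ear skin (500 ng per library, a dissected region of about 1 mm) was sequenced for 75 cycles on a NextSeq instrument, per the labels' protocols. STAR, HOMER, DESeq2 and the build mm10 are named in the submitters' processing notes, without versions or roles. The authors deposited TPM per gene and library, rounded to 3 decimals, with gene positions. The listed length was the gene's span on the genome (end minus start) for 99.24% of genes, and TPM times this length came in whole multiples of 1 value per library: in every library over 99.9% of the values checked lay within 0.1 of a whole read, against about 21% with lengths shuffled. Read numbers are the smallest whole numbers that fit. Ribosomal RNA entries took 30.6% to 40.2% of the listed TPM. The labels do not say whether counting used introns or strand.

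Groups came from sample titles. Of 25124 genes, 15704 reached 1 TPM in 4 or more libraries and were fitted on log2(TPM + 1) by limma (version 3.58.1, under R 4.3.3; empirical Bayes with a mean trend, no covariate), two-sided, with Benjamini-Hochberg adjustment over all of them and a threshold of 0.05. Fold changes are anti-CTLA-4 minus the bacterium alone and understate the change of low genes. Alternatives covered pseudocount, filter, scaling, variance settings, tissue covariates, the replicate number as a block and each library left out. The voom fits on recovered reads were chosen once the data had been seen. The scripts were tested on simulated data. The 43 genes and all lists were chosen with earlier results of these data known. Values per library are given for up to 3 genes of each role with the smallest p, and for Isg15, Irf7, Irf9, Stat2 and both receptor genes. From each wider list up to 4 genes with the smallest p are named, and any others were chosen after their values were seen. A gene that this rule would name is not reported. Promoters were searched with Python 3.11.15. No 2 libraries agreed within sampling noise.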

Additional observations from a re-analysis of the deposited data

Results flagged for a closer look

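Of 128 sets of values checked (each named gene in each group), 3 had 1 library set far from the others by Dixon's criterion, where chance gives about 1 in 20. Oas2 had 6.31 TPM in anti-CTLA-4 replicate 2, against 8.55 TPM in the nearest library of that group. Ifnar2 had 6.22 TPM in replicate 1 of the bacterium alone, against 7.54 TPM in the nearest library. Irf2 had 12.4 TPM in replicate 5 of the bacterium alone, against 11.5 TPM in the nearest.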

How the results depend on the processing

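All 43 fold changes (of those tested) stayed above 0 under every setting, and none was called lower. Of the 43 genes, 33 were called higher on TPM, 25 to 41 under the settings for pseudocount, filter, scaling, variance and threshold, 41 on recovered reads, 0 with the muscle covariate and 2 with the hair follicle covariate, and 19 to 39 without 1 library. Over the wider lists 36 genes rose, against 1 and 4 with the covariates and 28 to 37 without 1 library. None of these fell on TPM (limma; 0 on reads), against 2 with quantile normalization (on TPM and on reads), median scaling or a total that leaves out the top 50 genes, 1 at a threshold of 0.1 and 0 to 1 without 1 library. Over all genes 1124 rose, against 155 and 252 with the covariates, 1844 on reads, 1946 on reads with ribosomal RNA out of the library size and 706 to 1094 without 1 library. Of all genes 704 fell, against 1429, 1313 and 1306 under the 3 scalings, 35 and 24 with the covariates, 1260 at the threshold of 0.1, 1137 on reads, 1673 and 1092 on reads with quantile normalization and without ribosomal RNA, and 337 to 703 without 1 library. The cause of these shifts was not tested. With the replicate number as a block, over the 4 pairs, 29 of the 43 genes and 28 of the wider lists were called. Over all genes that fit called 593 higher and 88 lower. Same-numbered libraries correlated at -0.09 to 0.02 in their deviations from the group means, and the others at -0.06 to 0.10. The numbers thus show no sign of pairing, but 4 pairs cannot exclude it. Depth limits the ligand genes and the 8 genes with under 20 reads in a library.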
